A study of Mus musculus with 6 samples.

Results

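The genes described here are 40 genes of protein folding in the endoplasmic reticulum (ER) and of the unfolded protein response, followed in lacrimal glands of ICR and NOD/Ltj mice. They are a list of names, put together from the roles of the genes with earlier results of these data known: 11 chaperones and cochaperones, 6 disulfide isomerases and oxidases, 5 translocon subunits, 9 genes of ER-associated degradation, and 9 stress sensors and transcription factors. All 40 were found among the 55401 gene identifiers of the count table, all had counts in every library, and all 40 were among the 18537 genes that passed the filter on low counts and were tested. Polyadenylated RNA was sequenced from 3 lacrimal gland samples of ICR mice, an outbred stock labelled as the control, and 3 of NOD/Ltj mice, an inbred strain with spontaneous autoimmune disease of tear and salivary glands that serves as a mouse model for Sjögren's syndrome. No treatment is given for either group, and the labels give neither age nor sex. Since each group is a different strain, strain background and disease cannot be told apart. Whether the 3 samples of a group are 3 different animals is not stated in the labels, so the p-values reflect only the spread among these samples, which may be technical.

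Proteins that a cell secretes enter the ER through the translocon, a channel in its membrane, and are folded there by chaperones and by enzymes that form and rearrange disulfide bonds. Proteins that fail to fold are drawn back into the cytosol and degraded, a process called ER-associated degradation. The sensors IRE1 (gene Ern1), PERK (gene Eif2ak3) and ATF6 (gene Atf6) respond to unfolded protein: IRE1 splices the Xbp1 mRNA, PERK slows translation and favours synthesis of ATF4, and ATF6 is cut to release a transcription factor. Acinar cells of the lacrimal gland, which make the proteins of tears, and plasma cells, which make antibody, both rely on this machinery and both use Xbp1.

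A regulatory sequence marks the promoters of many of these genes. The ER stress response element (ERSE) is the letters CCAAT, any 9 bases, and CCACG, and it is known to be bound by ATF6 and XBP1 together with NF-Y. It was searched on both strands in windows from 250 bases before to 50 bases after the start of transcription, taken from RefSeq on build GRCm38.p6. The table held windows for 34 of the 40 genes. Hyou1, Manf, Sec61a1, Ssr2, Derl1 and Atf6 were not in it. The ERSE letters stood in 10 of the 34 windows (29.4%), namely those of Hspa5, Hsp90b1, Calr, Canx, Dnajc3, Creld2, Pdia6, Ero1lb, Syvn1 and Derl3, with 2 matches in Hsp90b1. Of all 27025 genes in the table, 37 (0.137%) held it, so these 10 made up 27.0% of them. A related element, ERSE-II (ATTGG, any 1 base, CCACG), stood in the windows of Herpud1 and, after the start, of Dnajb11, and in 12 genes of the whole table. The core CCACG, which is part of both elements, stood in 27 of the 34 windows (79.4%) against 35.5% of all genes. Neither TGACGTGG, an XBP1 and ATF6 element, nor TGATG, any 1 base, AAT, the C/EBP-ATF element of ATF4 and CHOP, stood in any of the 34 windows. They stood in 0.714% and 1.08% of all genes. A match is a description of the letters and does not show that a factor binds there.

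Stretches of 60 bases around the element are shown for 6 of these genes, 2 chaperones, 1 isomerase and 3 genes of ER-associated degradation. They carry the letters of ERSE, or of ERSE-II in Herpud1, in genes whose levels are compared further on. Capitals mark the letters of the element, read 5′ to 3′ on the strand of the gene, and a match on the other strand reads CGTGG, any 9 bases, ATTGG. The stretches are chr2:34772005-34772064 (plus strand) for Hspa5, chr8:84847054-84847113 (minus strand) for Calr, chr12:17266471-17266530 (plus strand) for Pdia6, chr19:6046512-6046571 (plus strand) for Syvn1, chr10:75893222-75893281 (plus strand) for Derl3 and chr8:94386353-94386412 (plus strand) for Herpud1, which carries ERSE-II. All lie before the start of transcription.
Hspa5: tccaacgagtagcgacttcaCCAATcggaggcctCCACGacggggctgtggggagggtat
Calr: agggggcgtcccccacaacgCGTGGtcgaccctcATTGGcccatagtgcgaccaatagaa
Pdia6: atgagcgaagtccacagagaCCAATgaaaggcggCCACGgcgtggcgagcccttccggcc
Syvn1: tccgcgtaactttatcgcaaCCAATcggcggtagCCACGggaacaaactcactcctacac
Derl3: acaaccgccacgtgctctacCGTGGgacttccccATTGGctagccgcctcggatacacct
Herpud1: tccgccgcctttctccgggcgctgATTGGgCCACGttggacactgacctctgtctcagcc
Counted from the start, where base -1 is the base just before it, the element ran from -65 to -47 in Hspa5, from -162 to -144 in Calr, from -98 to -80 in Pdia6, from -44 to -26 in Syvn1, from -156 to -138 in Derl3 and from -52 to -42 in Herpud1. The element thus lay at different distances from the start and in both orientations.

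The comparison of NOD/Ltj with ICR asked which of these genes differ in level between the groups. None of the 40 passed the test at an adjusted p under 0.05 (edgeR quasi-likelihood test), against 2.24% of all genes tested. None had an unadjusted p under 0.05, against 13.1% of all genes tested, and none was called by DESeq2 or limma-voom. Log2 fold changes of NOD/Ltj over ICR ran from -0.59 (Derl3) to 0.35 (Xbp1), 19 positive and 21 negative, with a median of -0.01 beside -0.03 over all genes tested. The median size without sign was 0.10, beside 0.31 over all genes tested and 0.22 over the 10146 tested genes whose higher group mean lay within the range of these 40. In 33 of the 40 the size was under 0.2. The groups did not overlap for 1 of the 40 genes, Xbp1, against 20% of all genes tested.

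A p that misses the threshold does not show equal levels, so the intervals matter here. The 95% interval of the fold stayed within a 2-fold difference in either direction for 36 of the 40 genes (90% of them), beside 41.8% of all genes tested and 68.5% of those in the same range of levels. The 4 exceptions were Derl3, Ern1, Sdf2l1 and Trib3. Among the 134 other pathway genes described further on, it was 84.3%. At the median gene of the 40, the interval reached 0.57 on the log2 scale to either side, beside 0.55 for the genes in the same range of levels. The intervals of the 40 were thus not narrower than those of that set.

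**Figure D1:**
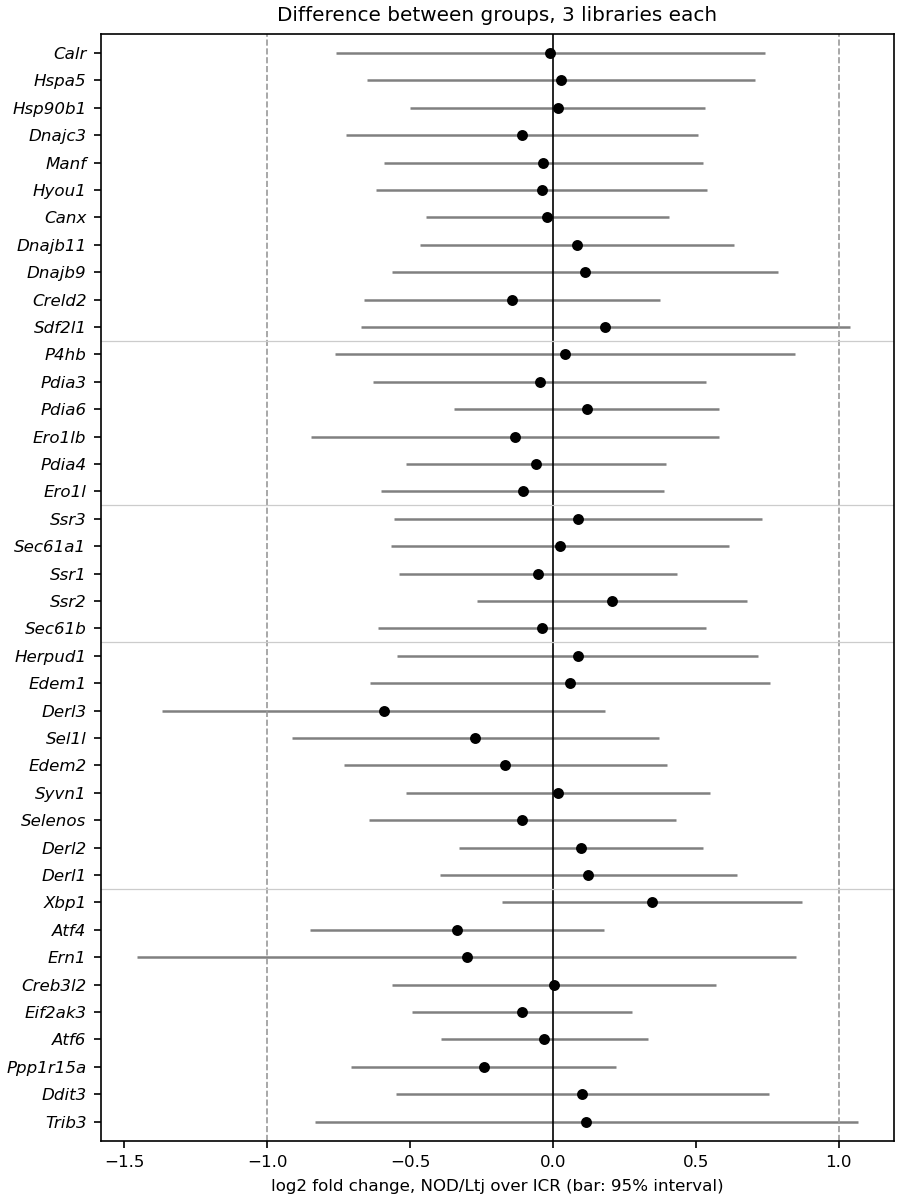
Log2 fold change of NOD/Ltj over ICR (x axis, points) with its 95% interval (bars) for each of the 40 genes (y axis), ordered by role with lines between role groups, 3 libraries per group. Every interval includes 0, and the dashed lines at a 2-fold difference are crossed by the bars of Derl3, Ern1, Sdf2l1 and Trib3.

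The libraries held between 58426580 (ICR 1) and 76554340 (ICR 2) estimated counts. The lowest value of any of the 40 genes was 154 counts, for Trib3 in ICR 1. Levels are given as CPM (counts scaled to library size, with TMM factors that correct for differences in composition). The summed level of 10 markers of the acinar cell was 10514 to 17577 CPM in ICR and 9974 to 14149 in NOD/Ltj. Most of this sum came from Pip in every library, with means of 9326 CPM in ICR and 8987 in NOD/Ltj. Not all 10 markers were abundant: Folr1 averaged 4.13 and 0.909 CPM in ICR and NOD/Ltj, and Chrm3 7.61 and 7.03. Amy1 ran from 7.17 CPM in NOD 1 to 1849 in ICR 3. Of these 10, 1 passed the test as lower in NOD/Ltj (Folr1) and none as higher. The log2 fold change was negative for 9 of the 10, the groups did not overlap for 4, all lower in NOD/Ltj, and no marker was at 0 in any library. All 10 markers of B cells and all 10 of T cells had groups that did not overlap and were higher in NOD/Ltj, and 9 and 5 of them passed the test. Single libraries stood apart: ICR 1 had a fibroblast marker sum of 2881 CPM against 426 to 645 in the other 5. ICR 3 had a salivary marker sum of 110818 CPM against 36172 to 40254 in the other ICR libraries and a skeletal muscle sum of 114 against 1.11 to 4.65 in the other 5. Most of the salivary sum came from Mucl2, at 98568 CPM in ICR 3. Other salivary markers also set NOD 2 apart within NOD/Ltj. Bpifa2 stood at 1358 CPM in NOD 2 against 33.9 in NOD 1 and 44.6 in NOD 3. Smr3a, Dcpp1 and Dcpp2 were likewise far higher in NOD 2, while Prol1 hardly differed and Mucl2 was lowest there. The acinar marker Amy1 was also highest in ICR 3 and NOD 2, as Bpifa2 was. The part of salivary tissue in the Amy1 level was not tested. In bulk tissue, fewer cells of a type and less RNA per cell cannot be told apart.

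Between genes, levels were compared per kilobase of exon, with each gene's length taken as the union of its annotated exons. P4hb, a protein disulfide isomerase, had the highest level of the 40 at 330 CPM per kb over all 6 libraries, followed by Calr at 221, Hspa5 at 122, Xbp1 at 109, Pdia3 at 87.4 and Derl3 at 71.7. The lowest were Eif2ak3 at 3.78, Atf6 at 2.22 and Trib3 at 2.04 CPM per kb. Folding enzymes and chaperones thus headed the order, and Eif2ak3, Atf6 and Trib3 closed it. Xbp1 had the highest level of the 9 sensors and transcription factors, and Atf4 followed it at 54.8 CPM per kb.

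**Figure D2:**
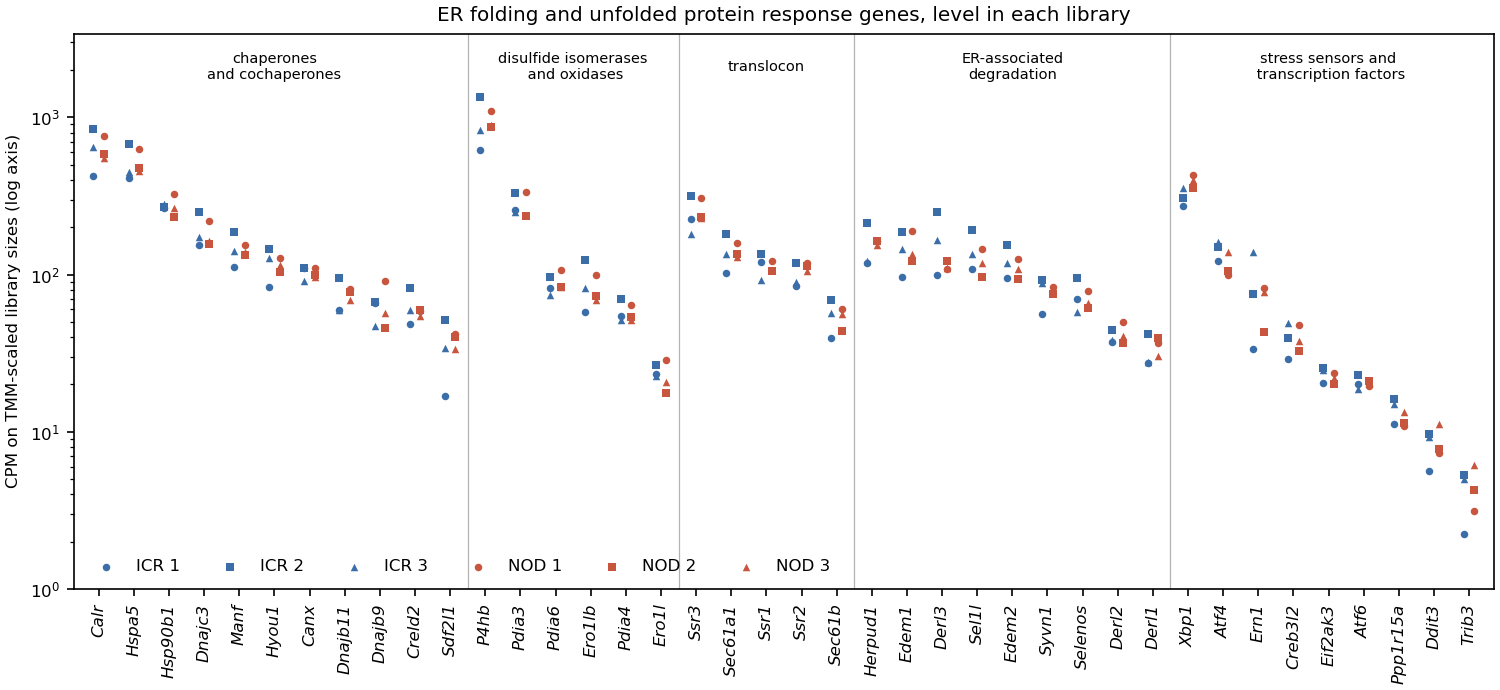
Level of each of the 40 genes (x axis, grouped by role and ordered by mean CPM within it) in each library, as CPM on TMM-scaled library sizes on a log axis, with ICR in blue, NOD/Ltj in red and a symbol for each replicate number. The red and blue points overlap for every gene except Xbp1, whose 3 red points lie at 357, 402 and 427 CPM and whose blue points end at 355.

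Among the chaperones and cochaperones, no gene passed the test and the median log2 fold change over the 11 was -0.01. Calr encodes calreticulin, a lectin chaperone that holds calcium. It stood at 425, 847 and 646 CPM in ICR 1, 2 and 3 and at 765, 586 and 554 CPM in NOD 1, 2 and 3. All NOD/Ltj values lay within the ICR range, and the log2 fold change was -0.01 ± 0.32 SE (95% interval -0.76 to 0.74, adjusted p = 0.994). Hspa5 encodes BiP, the ER chaperone of the Hsp70 family that also holds the sensors inactive. Its values were 412, 675 and 446 CPM in ICR and 629, 476 and 458 CPM in NOD/Ltj, again all within the ICR range, with a log2 fold change of 0.03 (95% interval -0.65 to 0.71). For BiP, folds of NOD/Ltj over ICR below 0.637 or above 1.63 lie outside the interval.

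Sdf2l1, a cofactor of BiP, had the largest fold change of the chaperones. It stood at 16.9, 51.5 and 34.0 CPM in ICR and at 42.0, 40.3 and 33.8 CPM in NOD/Ltj, so that ICR 1 was far below the other 5 libraries. The log2 fold change was 0.18 ± 0.37 SE (adjusted p = 0.903), and it was -0.16 without ICR 1 and 0.61 without ICR 2. Creld2, an ER protein induced by ER stress, stood at 48.6, 81.7 and 59.3 CPM in ICR and 58.2, 59.1 and 54.5 CPM in NOD/Ltj. Its log2 fold change was -0.14 ± 0.22 SE (adjusted p = 0.865), with all NOD/Ltj values inside the ICR range.

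The other chaperones had log2 fold changes between -0.11 and 0.11. Hsp90b1 encodes GRP94, the Hsp90 of the ER, and averaged 272 ± 6.83 CPM in ICR (SD, n = 3) and 275 ± 47.7 CPM in NOD/Ltj (SD, n = 3). Canx encodes calnexin, the membrane-bound partner of calreticulin, and had the narrowest spread of all 40 genes, with its highest library 1.22 times its lowest. The BiP cochaperones Dnajc3, Dnajb11 and Dnajb9 had log2 fold changes of -0.11, 0.08 and 0.11. Hyou1, an exchange factor for BiP, and Manf, a secreted ER stress protein, stood at -0.04 and -0.03. Manf shares exon bases with Rbm15b and Dcaf1, so its counts are uncertain. The counts of Rbm15b itself were 10.5% as large as those of Manf, and those of Dcaf1 6.51%.

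The disulfide isomerases and oxidases had a median log2 fold change of -0.05 over 6 genes, none of which passed the test. P4hb stood at 621, 1343 and 827 CPM in ICR and 1104, 872 and 899 CPM in NOD/Ltj. ICR 2 was 2.16 times ICR 1, the NOD/Ltj values lay between them, and the log2 fold change was 0.04 ± 0.34 SE (adjusted p = 0.980). Ero1lb (Ero1b in RefSeq) encodes an oxidase that passes oxidizing power to the isomerases in secretory cells. Its values of 57.7, 124 and 82.6 CPM in ICR and 99.4, 72.9 and 69.2 CPM in NOD/Ltj gave a log2 fold change of -0.13 ± 0.31 SE (adjusted p = 0.919). Pdia6, an isomerase that also acts on the sensors, stood at 81.7, 96.4 and 73.6 CPM in ICR and 106, 82.9 and 83.7 CPM in NOD/Ltj, a log2 fold change of 0.12 ± 0.20 SE (adjusted p = 0.880). NOD 1 was the highest library for Pdia6 and the groups overlapped. Pdia3, which works with calnexin and calreticulin on glycoproteins, and Pdia4 had log2 fold changes of -0.05 and -0.06, and Ero1l, the broadly expressed oxidase, stood at -0.11.

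The translocon subunits had a median of 0.02 over 5 genes. Ssr3, a subunit of the translocon-associated protein complex (TRAP), stood at 226, 314 and 181 CPM in ICR and 308, 230 and 227 CPM in NOD/Ltj, a log2 fold change of 0.09 ± 0.28 SE (adjusted p = 0.945). Ssr2, another TRAP subunit, stood at 84.3, 119 and 89.6 CPM in ICR and 119, 114 and 106 CPM in NOD/Ltj. The NOD/Ltj values were all above ICR 1 and ICR 3 and all below ICR 2, and the log2 fold change was 0.21 ± 0.20 SE (adjusted p = 0.762). Ssr2 shares exon bases with a processed pseudogene on the other strand, Gm10704, whose own counts were 7.77% as large as those of Ssr2. Sec61a1 and Sec61b, which form the channel itself, had log2 fold changes of 0.02 and -0.04, and the TRAP subunit Ssr1 stood at -0.05.

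Among the genes of ER-associated degradation, Derl3 had the largest fold change of all 40. Derlin-3 is a channel-associated protein that helps to draw misfolded glycoproteins out of the ER. Derl3 stood at 98.6, 250 and 167 CPM in ICR and at 109, 123 and 111 CPM in NOD/Ltj. The means were 172 ± 76.0 and 114 ± 7.61 CPM (SD, n = 3 each), but ICR 1 lay below all 3 NOD/Ltj libraries, so the groups overlapped. The log2 fold change of -0.59 ± 0.33 SE missed the threshold (95% interval -1.37 to 0.18, adjusted p = 0.530). It depended on single ICR libraries: it was -0.89 without ICR 1 (adjusted p = 0.106), -0.22 without ICR 2 and -0.61 without ICR 3. Without ICR 1, Derl3 and Ppp1r15a (log2 fold change -0.40, adjusted p = 0.296) were the only members of the 40 with an unadjusted p under 0.05. Its relatives Derl1 and Derl2 had log2 fold changes of 0.12 and 0.10, though Derl2 shares exon bases with Mis12, whose own counts were 27.5% as large.

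Herpud1, a ubiquitin-like membrane protein of the degradation complex, stood at 119, 213 and 123 CPM in ICR and 164, 164 and 154 CPM in NOD/Ltj. The 3 NOD/Ltj libraries were close together between ICR 3 and ICR 2, and the log2 fold change was 0.09 ± 0.27 SE (adjusted p = 0.945). Sel1l, the adaptor of the ubiquitin ligase HRD1, stood at 108, 192 and 135 CPM in ICR and 145, 96.9 and 118 CPM in NOD/Ltj, a log2 fold change of -0.27 ± 0.28 SE (adjusted p = 0.773). That value was -0.02 without ICR 2. The ligase itself, encoded by Syvn1, stood at 0.02, and it shares exon bases with Mrpl49 on the other strand, whose own counts were 12.1% as large. The lectins Edem1 and Edem2, which mark glycoproteins for degradation, had log2 fold changes of 0.06 and -0.17, and the selenoprotein Selenos, which recruits the extracting ATPase, stood at -0.11.

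Of the sensors, Ern1 varied the most and Atf6 and Eif2ak3 were among the genes that varied least. Ern1 stood at 33.5, 75.7 and 140 CPM in ICR and 81.9, 42.9 and 77.0 CPM in NOD/Ltj, a 4.17-fold range over the 6 libraries. ICR 1 was the lowest and ICR 3 the highest, so the log2 fold change of -0.30 ± 0.49 SE (adjusted p = 0.874) moved to -0.69 without ICR 1 and to 0.30 without ICR 3. Those are the libraries with the high fibroblast and the high salivary marker sums, and the part of either in the Ern1 level was not tested. Eif2ak3 stood at 20.5, 25.5 and 24.9 CPM in ICR and 23.8, 20.1 and 21.9 CPM in NOD/Ltj, a log2 fold change of -0.11 ± 0.16 SE (95% interval -0.49 to 0.28). Atf6 stood at 20.2, 23.1 and 18.7 CPM in ICR and 19.6, 20.9 and 20.3 CPM in NOD/Ltj, a log2 fold change of -0.03 ± 0.16 SE (95% interval -0.39 to 0.33). Taken as folds, the interval ran from 0.711 to 1.21 for Eif2ak3 and from 0.762 to 1.26 for Atf6. These are mRNA levels, and the activity of a sensor is not measured by them.

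Xbp1 was the gene with the highest positive fold change and the only one of the 40 whose groups did not overlap. It stood at 272, 305 and 355 CPM in ICR and 427, 357 and 402 CPM in NOD/Ltj. NOD 2 exceeded ICR 3 by little, and the log2 fold change of 0.35 ± 0.22 SE missed the threshold (95% interval -0.18 to 0.87, adjusted p = 0.599). It was 0.24 without ICR 1, 0.33 without ICR 2 and 0.45 without ICR 3. Gene counts do not separate the spliced from the unspliced Xbp1 mRNA, so the active form was not measured.

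Plasma cell markers varied beside it: their summed level was 561, 3349 and 1074 CPM in ICR and 4145, 3715 and 3217 CPM in NOD/Ltj over 12 markers, of which 1 was higher in NOD/Ltj by the test (Ighm), none was lower and none was at 0 in any library. The plasma cell sum was thus lowest in ICR 1, which had the lowest Xbp1, and highest in NOD 1, which had the highest Xbp1. In between the orders differed, since ICR 2 had a higher plasma cell sum than ICR 3 and a lower Xbp1 level. Most of the plasma cell sum came from Igkc, Igha and Jchain in every library. The log2 fold change was positive for 9 of the 12 markers and negative for 3. These 3 were Sdc1 at -0.15, Eaf2 at -0.09 and Tnfrsf17 at -0.0008. The part of plasma cells in the Xbp1 level was not tested.

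Atf4 encodes the transcription factor of the PERK arm, which is controlled mainly at translation. It stood at 122, 150 and 161 CPM in ICR and 99.6, 105 and 139 CPM in NOD/Ltj, with NOD 1 and NOD 2 below all ICR libraries and NOD 3 among them. The log2 fold change was -0.33 ± 0.22 SE (95% interval -0.85 to 0.18, adjusted p = 0.607), and it stayed negative, between -0.50 and -0.24, with any 1 library left out. Ddit3, which encodes CHOP, a factor of prolonged ER stress, stood at 5.63, 9.63 and 9.23 CPM in ICR and 7.31, 7.80 and 11.2 CPM in NOD/Ltj, a log2 fold change of 0.10 ± 0.28 SE (adjusted p = 0.933). Its exons overlap those of Mars on the other strand, whose counts were 416% of its own, so the Ddit3 level is uncertain. Trib3, a pseudokinase induced by ATF4 and CHOP, and Ppp1r15a, which encodes GADD34, the phosphatase subunit that ends the translational block, had log2 fold changes of 0.12 and -0.24. Ppp1r15a shares exon bases with Tulp2 on the other strand, whose own counts were 7.29% as large. Creb3l2, a membrane-bound transcription factor of secretory cells, averaged 39.1 ± 10.04 CPM in ICR (SD, n = 3) and 39.3 ± 7.47 CPM in NOD/Ltj (SD, n = 3).

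**Figure D3:**
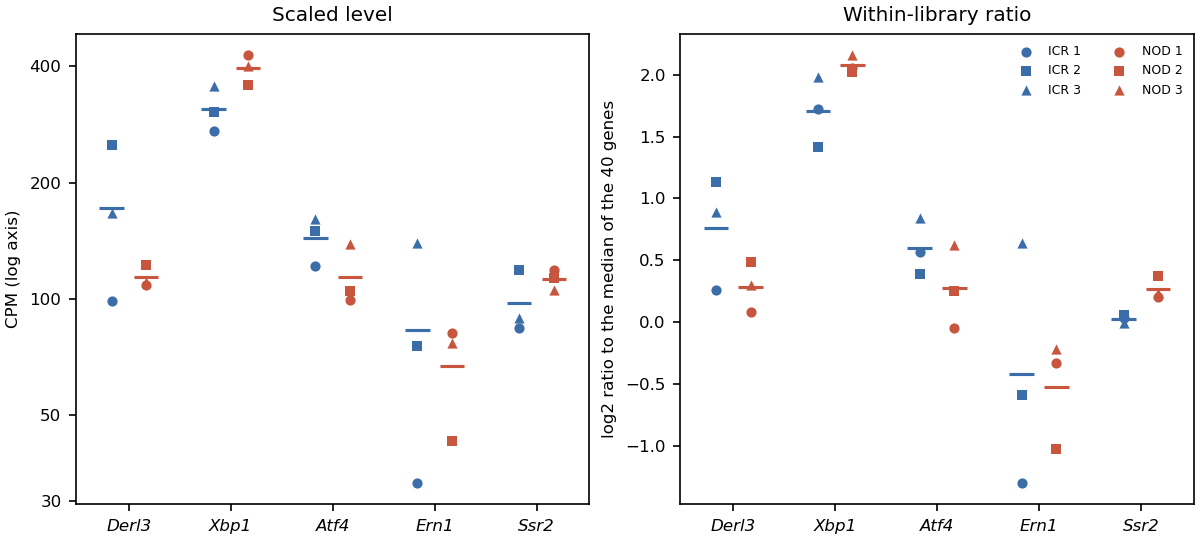
Values of Derl3, Xbp1, Atf4, Ern1 and Ssr2 in each library, on the left as CPM on TMM-scaled library sizes (log axis) and on the right as the log2 ratio to the median of the 40 genes in the same library; points are libraries and horizontal lines are group means of the log2 values on the right and of CPM on the left. Xbp1 separates the groups in both panels, Ssr2 in the right panel, and Derl3, Atf4 and Ern1 overlap in both. In ICR 2 and ICR 3 Ssr2 itself helps to set the median, which holds its ratio near 0 there.

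The 40 genes tended to be high or low together in a library. The highest of the 6 libraries exceeded the lowest by 1.22 (Canx) to 4.17 times (Ern1), with a median of 1.66. The gene in ICR 1 was below the same gene in ICR 2 for 39 of the 40, beside 48.7% of all genes tested. ICR 3 was below ICR 2 for 35, beside 47.0%. Within NOD/Ltj, NOD 2 was below NOD 1 for 32 and NOD 3 below NOD 1 for 34, beside 50.4% and 49.3%. The range of NOD/Ltj lay inside that of ICR for 23 of the 40 genes, beside 28.1% of all genes tested. ICR 2 held the highest of the 6 values for 26 genes and ICR 1 the lowest for 22, and the SD was larger in ICR for 33. Shares over all genes were not computed for these last counts, so they are not read as particular to the 40 genes.

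Summed over the 40 genes, the level was 4645, 7505 and 5637 CPM in ICR 1, 2 and 3 and 6813, 5385 and 5566 CPM in NOD 1, 2 and 3. The order of the libraries depended on the scaling. As a share of the unscaled counts the 40 genes took 0.550, 0.607 and 0.515% in ICR and 0.584, 0.675 and 0.590% in NOD/Ltj, so that NOD 2, the lowest NOD/Ltj library after scaling, was the highest of all 6 before it. The TMM scaling factors ran from 0.809 in ICR 2 to 1.26 in NOD 2. By total counts only, without these factors, the median log2 fold change of the 40 genes was 0.12 instead of -0.01 and that of all genes tested 0.09 instead of -0.03. Relative to all genes, the median of the 40 was 0.03 by total counts and 0.01 with TMM. The part of other tissue or cell types in the differences between libraries was not tested.

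**Figure D4:**
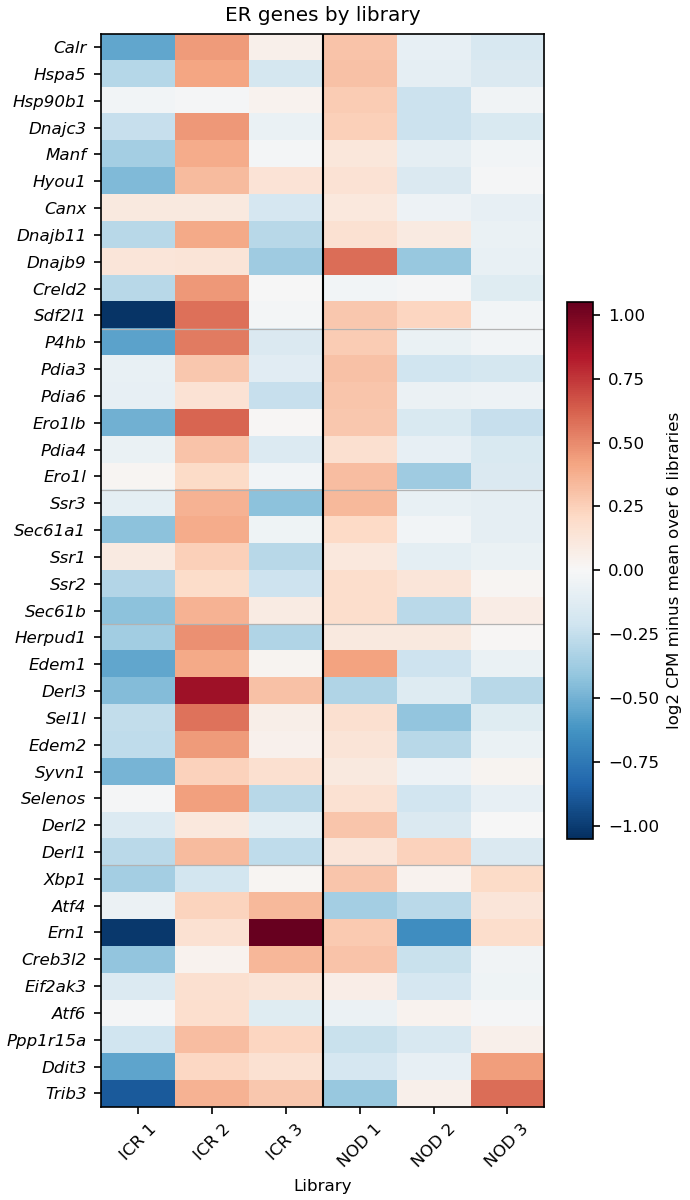
Level of each of the 40 genes (rows, by role, grey lines between groups) in each library (columns, black line between ICR and NOD/Ltj) as log2 CPM minus the mean of that gene over the 6 libraries, from blue (low) to red (high). The column of ICR 2 is red for most genes and that of ICR 1 blue, with Ern1 in ICR 3 and Derl3 in ICR 2 among the highest deviations.

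A ratio within the library does not depend on the scaling. The log2 ratio of each gene to the median of the 40 in the same library separated the groups for Xbp1 and Ssr2 only, 2 of the 40, beside 15.9% of all genes tested by the same ratio. For Xbp1 it was 1.72, 1.42 and 1.98 in ICR and 2.05, 2.02 and 2.16 in NOD/Ltj, a difference of 0.37 between the means. For Ssr2 it was 0.03, 0.06 and -0.01 in ICR and 0.20, 0.37 and 0.23 in NOD/Ltj, a difference of 0.24. In ICR 2 and ICR 3 the median lay midway between Ssr2 and Canx, so the Ssr2 ratio there was near 0 partly by construction. The difference was -0.47 for Derl3, whose ratio in ICR 1 (0.26) lay among those of NOD/Ltj (0.08, 0.48 and 0.30). It was -0.32 for Atf4 and 0.34 for Sdf2l1, with overlapping groups in both. These ratios are a description, and no test was run on them.

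The fold changes of genes with and without the ERSE letters had close medians. The 10 genes with ERSE had a median log2 fold change of -0.01, from -0.59 (Derl3) to 0.12 (Pdia6), and the 24 genes in the table without it had a median of -0.02, from -0.33 (Atf4) to 0.35 (Xbp1). Derl3 and Pdia6, at the ends of that range, carry the element in opposite orientations, as the printed stretches show. They were picked by their fold changes, and a link between orientation and fold change was not tested. None of the genes in either set passed the test.

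The rest of the pathway was read from lists of 138 other genes, of which 134 were tested. None passed the test with edgeR, against the 2.24% of all genes. An unadjusted p under 0.05 was found for 3, all lower in NOD/Ltj (Creb3, Psat1 and Aldh18a1), beside 13.1% of all genes tested. By other tools, 1 gene was called with DESeq2 (Psat1, lower) and none with limma-voom. The median log2 fold change was -0.07, with 42 positive and 92 negative. Over all genes tested it was -0.03, with 8711 positive and 9826 negative. The sign of the pathway median depended on the scaling and on ICR 2. It was 0.08 by total counts only, with 87 positive and 47 negative values, but the median of all genes tested then rose to 0.09. The pathway median thus lay below that of all genes under both scalings. Without ICR 2 it was 0.05, beside -0.02 over all genes tested. The groups did not overlap for 8 genes, higher in NOD/Ltj for Cnpy3, Rnf139 and Nupr1 and lower for Uggt2, Nploc4, Creb3, Wfs1 and Psat1, beside 20% of all genes tested.

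The 22 targets of ATF4 and CHOP, which include enzymes and transporters of amino acid supply, transcription factors and regulators of growth and cell death, had the most negative median of the lists at -0.26, with 19 negative and 3 positive values. That median stood beside -0.03 over all genes tested. By total counts only it was -0.13, with 14 negative and 8 positive values, beside 0.09 over all genes tested. The list thus lay below all genes under both scalings. With 1 library left out its median ran from -0.53 (without NOD 3) to -0.10 (without ICR 3). Psat1, an enzyme of serine synthesis, stood at 16.5, 17.4 and 21.01 CPM in ICR and 11.8, 11.4 and 11.2 CPM in NOD/Ltj. All 3 NOD/Ltj values lay below ICR, and the log2 fold change of -0.67 ± 0.16 SE had an adjusted p of 0.105 with edgeR. DESeq2 called it (adjusted p = 0.0228), and over the other alternatives its adjusted p ran from 0.0603 to 0.594. Chac1, which degrades glutathione, had a log2 fold change of -1.12 and overlapping groups, at 4.71, 18.8 and 12.2 CPM in ICR and 1.43, 3.30 and 11.7 CPM in NOD/Ltj (adjusted p = 0.632). The cystine transporter Slc7a11 stood at -0.77, with 36.8 CPM in ICR 3 against 4.42 to 11.3 CPM in the other 5 libraries. Asns, the asparagine synthetase, stood at -0.66 (adjusted p = 0.521), and Nupr1, a stress-induced chromatin protein, at 0.45 with groups that did not overlap (adjusted p = 0.508).

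With TMM scaling, of the other lists, sensors and regulators had a median of -0.20 over 13 tested genes, where the site-2 protease Mbtps2 stood at 0.51 and the transcription factor Creb3l1 at -0.46. N-glycosylation and glycan trimming had a median of -0.12 over 18 genes, with the glucosidase Mogs at -0.24 and the mannosyltransferase Alg2 at -0.20. Signal peptidase, translocon and targeting genes had a median of -0.04 over 21 genes, with the signal peptidase subunit Sec11c at -0.51 and Tram2 at 0.35. Other genes of ER-associated degradation had a median of -0.05 over 18, with Ufd1 at 0.50 and Vcp at -0.39, both part of the complex that extracts proteins from the membrane. Export from the ER had a median of -0.06 over 20 genes, with the vesicle coat subunits Sec23a at -0.37 and Sec31a at -0.23. Other folding factors had a median of -0.01 over 22, with Sdf2 at 0.39 and Erp44, which retains proteins in the early secretory pathway, at 0.36.

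**Figure D5:**
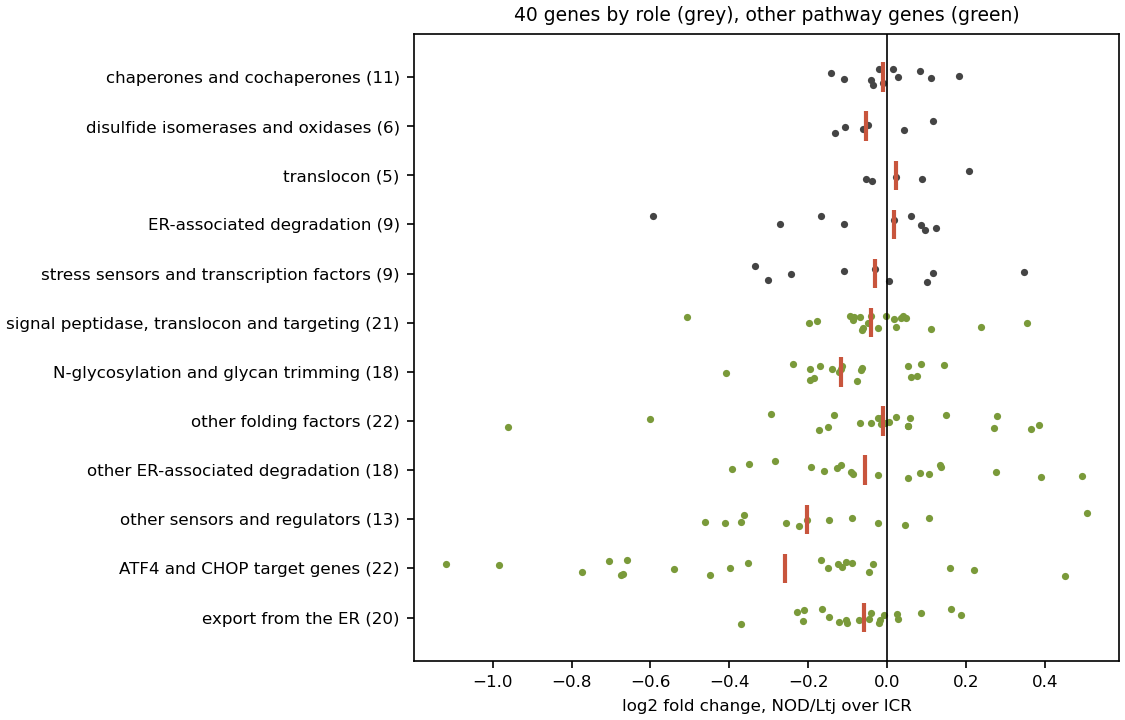
Log2 fold change of NOD/Ltj over ICR (x axis) of the 40 genes by role (grey points) and of 7 lists of other pathway genes (green points), with the number of genes tested in brackets and the median of each list as a red bar; the vertical scatter within a row has no meaning. The medians of the 5 role groups lie between -0.05 and 0.02 and that of the ATF4 and CHOP targets at -0.26, and no gene shown passed the edgeR test.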

How the data were processed

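The authors deposited 1 table of estimated counts per gene, already whole numbers, for 6 libraries. Per the labels' protocols, polyadenylated RNA was used and the second strand was labelled with dUTP. Per the submitters' processing notes, fastp, StringTie and edgeR were used, with no versions or roles. No aligner, genome build, way of counting or strand setting is named (not given in the sources used here), so genes that share exon bases with another gene are uncertain. The test was planned for plain counts and kept, since nothing needed rounding. Low values piled up at 4: in each library 808 to 1043 genes stood at 4 counts, 368 to 497 at 3 and 223 to 337 at 5. Multiples of 4 made up 30.4 to 31.7% of values from 1 to 40 (25% without steps), so a step of about 4 counts for each fragment is likely at low values.

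Symbols and exon lengths came from GENCODE mouse release M21 (55141 of 55401 identifiers had a symbol). Of the pathway lists, Pdilt, Ern2 and Creb3l3 were not tested, and Vimp is an older symbol of Selenos. Ddit3 stood on 2 identifiers, of which 1 was at 0 in every library and was not used. Promoter windows came from the RefSeq table of build GRCm38.p6. In 28 of 34 windows the bases after the start were found in sense orientation in GENCODE transcripts, and in 0 in reverse. No genome of the counts' build was used.

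The test was that of edgeR 4.0.16 under R 4.3.3 (quasi-likelihood, TMM, filterByExpr, two-sided, no covariate) over 18537 genes, with Benjamini-Hochberg adjustment and a threshold of 0.05. This called 349 genes higher and 67 lower in NOD/Ltj. The common biological coefficient of variation was 0.421. Standard errors were recovered from the F statistic of each gene and its log2 fold change, and intervals are 95%. Scripts were tested on simulated data. Alternatives used DESeq2 1.42.0, limma-voom (limma 3.58.1), other scalings and filters, a replicate block and each library left out. Each library was counted as 1 sample, since pairs differed by chi-square values of 94.3 to 920 per degree of freedom over genes.

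The members and lists were chosen with earlier results of these data known. By the naming rule, full values are given in each role group for the most abundant gene and the 2 genes with the largest absolute log2 fold change, and for Ern1, Eif2ak3, Atf6, Xbp1, Atf4 and Ddit3. Hspa5 was added as the best-known chaperone. In each pathway list, the 2 genes with the largest absolute log2 fold change are named, among those that average 5 CPM or more in either group. Psat1, Asns and Nupr1 and genes named for groups that did not overlap or for an unadjusted p were chosen after their values were seen. Sequences were chosen for their element and role.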

Additional observations from a re-analysis of the deposited data

How the results depend on the processing

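None of the 40 genes was called under any of 15 alternatives, and 599 of 600 recomputed log2 fold changes moved by less than the spread between replicates. The other was Atf6 at 0.11 by total counts only. For the settings with a library left out, this outcome was close to fixed in advance. Leaving out 1 of 3 libraries shifts a group mean by less than the SD of the replicates. Ern1, which went from -0.30 to 0.30 without ICR 3, counted as within the spread. The 599 therefore do not show that the values are stable. The median of the 40 ran from -0.17 (without ICR 1) to 0.15 (without ICR 2), beside an SD between replicates of 0.24. Of the 40, 34 changed sign in some setting, with log2 fold changes up to 0.30 in size, and Ssr2, Sel1l, Derl3, Xbp1, Atf4 and Ppp1r15a did not. Total counts only and counts divided by 4 were alternatives chosen after seeing the data.

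Over all genes tested, the number higher and lower in NOD/Ltj was 898 and 285 with DESeq2, 123 and 20 with limma-voom, and 226 and 40 by total counts only. With 1 library left out it ranged from 11 to 406 higher and from 2 to 118 lower, at 406 and 118 without ICR 1, 112 and 30 without ICR 2, 120 and 29 without ICR 3, 405 and 37 without NOD 1, 63 and 10 without NOD 2, and 11 and 2 without NOD 3. The causes were not tested. With the replicate number as a block there were 129 higher and 25 lower genes. The numbers gave no sign of pairing the samples: same-numbered libraries correlated at -0.16, -0.19 and 0.12 in their deviations from the group means, and not every sample correlated best with its own number. The lowest value of any of the 40 genes was 154 counts, so none was near 0.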

Other observations

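Outside the 40 genes, 27 genes held the ERSE letters in their window, and 17 of them were tested. Their median log2 fold change of NOD/Ltj over ICR was 0.03, and 1 passed the test (beside 2.24% of all genes tested), Tdrd9, which had 0 counts in all ICR libraries and a mean of 0.401 CPM in NOD/Ltj. Among the 17 were Alg12, a mannosyltransferase of N-glycan assembly (log2 fold change 0.09), and Calr4, a relative of calreticulin (-0.45). Also among them were Esp15, Esp16, Esp18 and Esp36, of the family of peptides secreted by exocrine glands. Esp15, Esp16 and Esp18 averaged 15730, 11238 and 5061 CPM in ICR and 8343, 16305 and 6960 CPM in NOD/Ltj, with adjusted p-values of 0.452, 0.731 and 0.751 by edgeR. Esp36 averaged 7.49 CPM in ICR and 0.418 CPM in NOD/Ltj, a log2 fold change of -4.16 (adjusted p = 0.295). The Esp genes are a family of near copies, so the counting could have split reads among them. These genes were picked out after their values were seen.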
